A study of Nematostella vectensis with 84 samples.

Results

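The comparison concerned 2 ways of sorting the same kind of cell by fluorescence. One gate is named epithelial-depleted by the authors, and the other is the standard gate for cells that carry the reporter KikGR. Cells were chosen by the entries of the authors' cell table, as those of the FoxL2>KikGR line with no medium stated, which gave 3202 of the 12352 cells of the series. Of these, 2568 came from the epithelial-depleted gate in dissociations 10, 12, 13, 18 and 19, and 634 came from the KikGR+ gate in dissociations 10, 12 and 13. Both gates therefore met in 3 dissociations, which held 1604 epithelial-depleted and 634 KikGR+ cells and formed the pairs compared here. No molecule counts were used, so the authors' cluster names could not be checked against marker genes and are used as given.

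All animals were adult Nematostella vectensis of 6 to 8 weeks, heterozygous for a stable FoxL2>KikGR transgene, and no treatment is stated for these dissociations. Cells came from the body wall with mesenteries, 2 days after photoconversion in dissociations 10, 18 and 19 and 4 days after it in 12 and 13. KikGR is a green fluorescent protein that light turns red. The labels do not say how many animals entered a dissociation or how many transgenic founders the line goes back to, and the boundaries of the gates are not given in the sources used here. Which cells make KikGR is set by the FoxL2 driver of the transgene, and the authors name both gates KikGR+. Whether each sorted cell carried the reporter was not checked here.

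A sea anemone is built of 2 epithelia, the outer epidermis and the inner gastrodermis, with neurons, gland cells and stinging cells (cnidocytes) set among the epithelial cells. The gastrodermis folds into mesenteries, which carry retractor and parietal muscle and digestive gland cells. In Nematostella, neurons and gland cells have been traced to common progenitors, and many neuron types are named after the neuropeptide precursor or transcription factor gene they express. FoxL2 is a forkhead transcription factor, best known in mammals from the granulosa cells of the ovary.

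Each library came from the even-numbered or the odd-numbered wells of a plate and held cells of 1 gate only. Libraries held 131 to 172 cells. Dissociation 10 had 274 epithelial-depleted cells on 1 plate and 315 KikGR+ cells on another. Dissociation 12 had 497 epithelial-depleted and 157 KikGR+ cells, and dissociation 13 had 833 and 162. In 12 and 13 the KikGR+ cells were 1 library, which shared its plate with an epithelial-depleted library. Dissociations 18 and 19 added 655 and 309 epithelial-depleted cells with no KikGR+ counterpart.

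With 3 pairs, a two-sided exact permutation test of paired differences cannot give a p below 0.25, so no difference could pass a threshold of 0.05 in that test. Results are therefore given as the share of cells in each gate and pair, the mean difference between gates in percentage points, and the number of pairs with the same direction. Wilson intervals of 95% cover counting error only.

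Epithelial cells made up a smaller share of the epithelial-depleted cells than of the KikGR+ cells in 2 of 3 pairs, and the gates were alike in the remaining one. In dissociation 10, 20 of 274 epithelial-depleted cells were Epidermis or Gastrodermis (7.30%, Wilson interval 4.77 to 11.0%), against 31 of 315 KikGR+ cells (9.84%, 7.02 to 13.6%). In dissociation 12 they were 22 of 497 epithelial-depleted cells (4.43%, 2.94 to 6.61%), against 22 of 157 KikGR+ cells (14.0%, 9.44 to 20.3%). In dissociation 13 they were 25 of 833 epithelial-depleted cells (3.00%, 2.04 to 4.39%), against 4 of 162 KikGR+ cells (2.47%, 0.964 to 6.18%). The pair of dissociation 12 was thus the one with a wide separation, and in dissociation 13 the KikGR+ gate itself held hardly any epithelial cells.

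The epithelial share averaged 4.91% ± 2.19 in the epithelial-depleted gate and 8.77% ± 5.85 in the KikGR+ gate (SD, n = 3 each), a mean paired difference of -3.87 points with an SD of 5.19. The two-sided exact permutation p was 0.5. The differences of single pairs were -2.54 points in dissociation 10 (Newcombe interval for counting error -7.10 to 2.12), -9.59 in 12 (-16.1 to -4.52) and 0.532 in 13 (-3.30 to 2.58), so that only the interval of dissociation 12 lay wholly below 0. Without dissociation 12 the mean difference was -1.005 points, and without dissociation 13 it was -6.06.

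The epithelial-depleted cells of the unpaired dissociations had more epithelial cells than those of the pairs. Their share was 11.5% in dissociation 18 (75 of 655 cells, Wilson interval 9.23 to 14.1%) and 15.5% in dissociation 19 (48 of 309 cells, 11.9 to 20.0%), so dissociation 19 exceeded all KikGR+ values of the pairs. The 5 epithelial-depleted values thus ranged over 3.00 to 15.5% and the 3 KikGR+ values over 2.47 to 14.0%, an almost complete overlap. Setting all 5 against all 3, without pairing, gave a difference of -0.432 points (two-sided exact permutation test, p = 0.929). Dissociations 18 and 19 are both day 2, so every comparison of 5 against 3 mixes gate with day. In the epithelial-depleted gate, day 2 shares were 7.30% (dissociation 10), 11.5% and 15.5%, and day 4 shares were 4.43% and 3.00%. The effect of day was not tested. The spread between dissociations, which differ in day, was larger than the mean difference between gates. In dissociations of the same line with 1% DMSO, the KikGR+ gate held 20.6 to 47.3% epithelial cells (5 dissociations at days 2, 4 and 7). These are set beside the other values without a test, because medium and day differ.

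**Figure D1:**
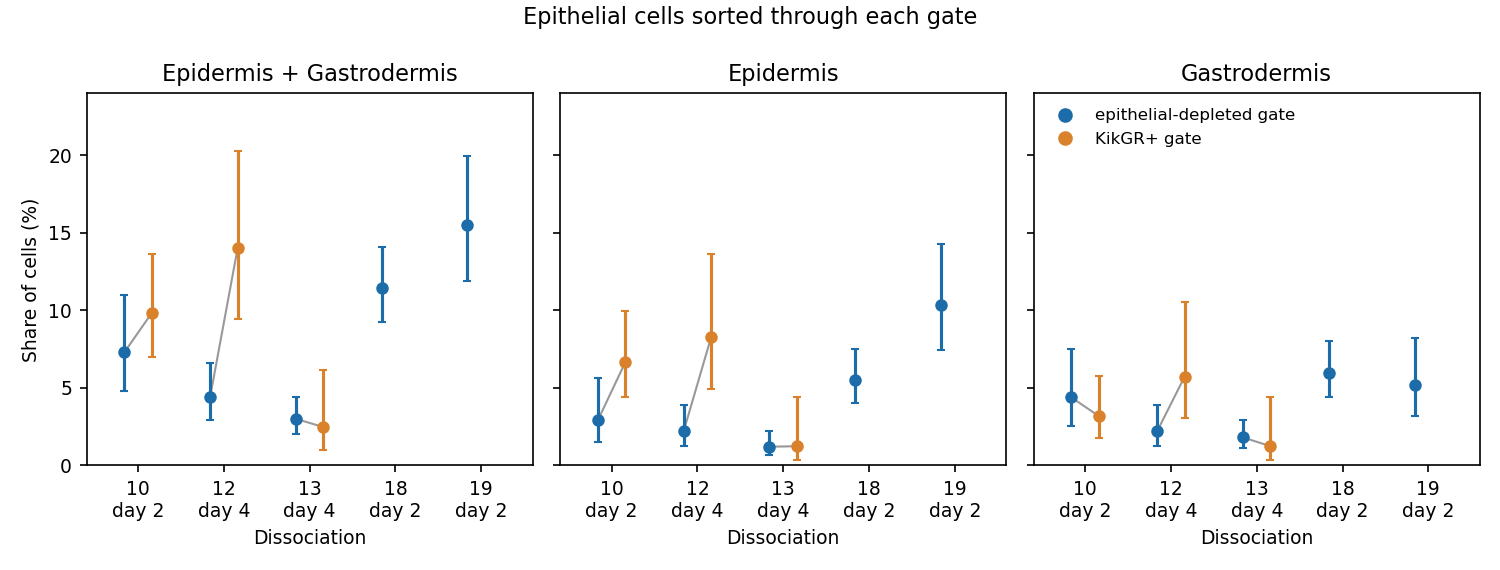
Share of cells in percent (y axis) that were Epidermis or Gastrodermis, and each of the 2 alone, by dissociation (x axis) for the epithelial-depleted gate (blue, left) and the KikGR+ gate (orange, right); bars are Wilson 95% intervals and grey lines join the gates of 1 dissociation. The epithelial share was 4.43% in the epithelial-depleted gate and 14.0% in the KikGR+ gate of dissociation 12, while dissociations 18 and 19, with the epithelial-depleted gate only, reached 11.5% and 15.5%.

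Most of the mean difference lay in Epidermis, the outer layer. Epidermis was 2.92%, 2.21% and 1.20% of epithelial-depleted cells in dissociations 10, 12 and 13, against 6.67%, 8.28% and 1.23% of KikGR+ cells. It was lower in the epithelial-depleted gate in all 3 pairs, but in dissociation 13 the difference was only -0.0341 points (10 of 833 against 2 of 162 cells). On the shared plate of dissociation 13 it was higher in the epithelial-depleted gate, at 4 of 171 cells (2.34%), against 2 of 162 KikGR+ cells (1.23%). The mean was 2.11% ± 0.864 in the epithelial-depleted gate and 5.39% ± 3.69 in the KikGR+ gate (SD, n = 3 each), with a mean paired difference of -3.28 points (exact permutation p = 0.25, adjusted p = 0.929 over 13 broad clusters). The counting intervals of the difference lay below 0 in dissociation 10 (-7.35 to -0.196) and dissociation 12 (-11.5 to -2.28). In dissociations 18 and 19 the epithelial-depleted gate held 5.50% and 10.4% Epidermis cells.

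Gastrodermis, the inner layer, did not differ in one direction. It was 4.38%, 2.21% and 1.80% of epithelial-depleted cells in dissociations 10, 12 and 13, against 3.17%, 5.73% and 1.23% of KikGR+ cells. The share was thus higher in the epithelial-depleted gate in 2 pairs and lower in dissociation 12, with a mean difference of -0.583 points and an exact permutation p of 1. Without dissociation 12 the mean difference was 0.886 points. On the plates with both gates it was -2.03 points, with Gastrodermis lower in the epithelial-depleted gate in dissociation 13 too (1 of 171 against 2 of 162 cells).

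Of the 3 finer Gastrodermis clusters, only cluster 2 was lower in the epithelial-depleted gate in all pairs, with differences of -0.715, -0.502 and -0.634 points and a mean of 1.28% against 1.90% in the KikGR+ gate. It rested on 17 epithelial-depleted and 13 KikGR+ cells. Cluster 3 averaged 0.605% in the epithelial-depleted gate and 0.637% in the KikGR+ gate, where 2 of the 3 dissociations had no such cell (0 of 315 and 0 of 162, which allow shares of up to 0.952% and 1.85%). Cluster 8, which the authors name parietal muscle of the gastrodermis, averaged 0.915% in the epithelial-depleted gate and 0.849% in the KikGR+ gate. Both were higher in the epithelial-depleted gate in dissociations 10 and 13 and lower in 12. When cluster 8 was not counted as epithelial, the epithelial share was lower in the epithelial-depleted gate in all 3 pairs. The mean difference was -3.93 points (exact permutation p = 0.25). In dissociation 13 the gates then hardly differed, at 2.28% (19 of 833) of epithelial-depleted and 2.47% (4 of 162) of KikGR+ cells. This alternative was not planned and was added after seeing the data.

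Within the plates that carried both gates, the epithelial share was 3.49% of 172 epithelial-depleted cells and 14.0% of 157 KikGR+ cells in dissociation 12. In dissociation 13 it was 2.92% of 171 and 2.47% of 162. The differences, -10.5 and 0.455 points, were close to those over all plates of the same dissociations.

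Over all 13 broad clusters, 2 moved in the same direction in all 3 pairs (15.4%): Epidermis, lower in the epithelial-depleted gate, and Neural 1, higher in it. The smallest exact permutation p was 0.25, no cluster had an unadjusted p under 0.05, and for none did the ranges of the 2 gates separate. Permuting the gate within dissociations over plates, or over the 2 libraries of a plate that held both gates, had 24 arrangements and also gave 0 broad clusters at an unadjusted p under 0.05 (smallest p = 0.0833, that of Epidermis).

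Neural 1, the largest group of neurons, was 44.5%, 45.5% and 47.9% of epithelial-depleted cells in dissociations 10, 12 and 13, against 43.2%, 44.6% and 46.9% of KikGR+ cells. The differences of 1.35, 0.887 and 0.986 points were small beside their counting intervals, the narrowest of which ran from -6.63 to 9.33. On the plates with both gates, Neural 1 was lower in the epithelial-depleted gate (mean difference -1.72 points). In dissociations 18 and 19 the epithelial-depleted gate held 32.2% and 45.3% Neural 1 cells, and over all 5 against 3 values the difference was -1.81 points.

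All neural clusters together were 62.0%, 60.4% and 65.1% of epithelial-depleted cells in dissociations 10, 12 and 13, against 59.0%, 58.0% and 62.3% of KikGR+ cells. They were higher in the epithelial-depleted gate in 3 of 3 pairs, with a mean of 62.5% ± 2.38 against 59.8% ± 2.28 in the KikGR+ gate (SD, n = 3 each). The paired difference of 2.71 points had an SD of 0.298 between pairs and an exact permutation p of 0.25. Dissociations 18 and 19 had 52.7% and 58.9% neural cells in the epithelial-depleted gate, and 5 values against 3 differed by 0.0237 points (exact permutation p = 1). On the plates with both gates the mean difference was 0.782 points, and in dissociation 13 it was -0.357.

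Of the smaller neural groups, Neural 2 averaged 10.4% of epithelial-depleted and 8.40% of KikGR+ cells, and was higher in the epithelial-depleted gate in dissociations 12 and 13. Neural 4 averaged 3.10% in the epithelial-depleted gate and 2.82% in the KikGR+ gate, Neural 0 1.80% and 1.78%, and Neural 3 1.23% and 1.90%. None of these moved one way in all pairs. Neural 3 in dissociation 10 was 1 of 274 epithelial-depleted cells and 8 of 315 KikGR+ cells, whereas in dissociations 12 and 13 the gates differed by at most 0.101 points.

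Among the gland cells, Secretory averaged 15.8% ± 1.67 of epithelial-depleted cells and 14.1% ± 1.89 of KikGR+ cells (SD, n = 3 each). Only dissociation 12 had a wide gap, with 17.1% of epithelial-depleted and 12.1% of KikGR+ cells. Mucous cells averaged 2.89% in the epithelial-depleted gate and 1.98% in the KikGR+ gate, and were lower in the epithelial-depleted gate in dissociation 13 only. Progenitor cells averaged 8.91% ± 0.770 in the epithelial-depleted gate and 9.32% ± 2.35 in the KikGR+ gate. Developing cnidocytes averaged 1.53% against 1.77%, retractor muscle of the mesenteries 0.481% against 0.523%, and cells the authors left undetermined 2.98% against 3.78%, the epithelial-depleted value first in each.

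Shares sum to the whole, so the loss of one class raises the rest. With Epidermis and Gastrodermis left out of the total, 0 of 11 broad clusters (0%) moved in the same direction in all 3 pairs, and 0 had an exact permutation p under 0.05 in either the paired test (smallest p = 0.5) or the permutation of plates (smallest p = 0.292). Neural 1 was then 48.3% ± 0.938 of epithelial-depleted and 49.3% ± 2.23 of KikGR+ cells (SD, n = 3 each). Secretory was 16.7% and 15.4%, Progenitor 9.36% and 10.2%, and Neural 2 10.9% and 9.23%, again with the epithelial-depleted gate named first.

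**Figure D2:**
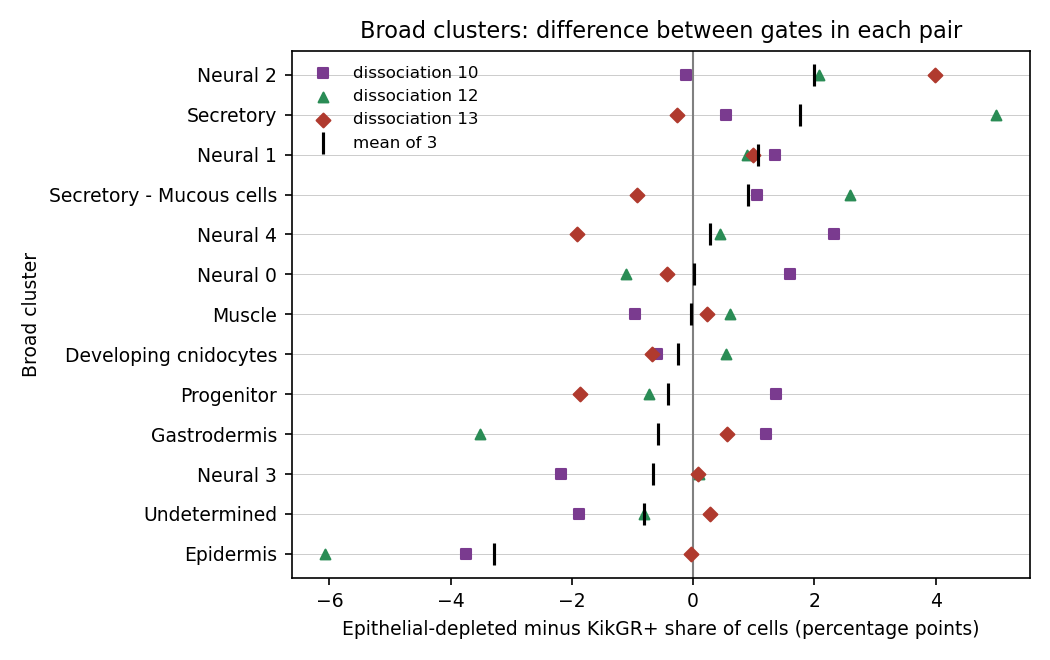
Difference in share of cells between the gates, epithelial-depleted minus KikGR+, in percentage points (x axis) for each of 13 broad clusters (y axis); symbols are the 3 paired dissociations and the black bar their mean. Epidermis lay lowest, with a mean of -3.28, and Neural 1 was the only cluster with all 3 symbols above 0.

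The finer annotation divides these groups into 45 clusters, of which 43 had a cell in the pairs. In 10 of the 43 (23.3%) the share moved in the same direction in all 3 pairs, 7 higher and 3 lower in the epithelial-depleted gate. The paired exact permutation test gave 0 clusters with p under 0.05, and the permutation of plates gave 2, clusters 4 and 18 of Neural 1, each at 0.0417, the smallest p that 24 arrangements can give (adjusted p = 0.672). The unpaired exact permutation test of 5 against 3 values also gave 2, cluster 43 at 0.0179 and cluster 20 at 0.0357 (smallest adjusted p = 0.576), so the 2 tests called different clusters. Of the 8 sign patterns that 3 pairs can have, 2 run in 1 direction, a share of 0.25, so counts of this size describe the pairs and do not show that the gates differ. Of the 10, 6 belonged to Neural 1, the broad cluster whose total hardly differed between the gates.

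Cluster 4 of Neural 1 had the largest mean difference among the 10. It was 4.01%, 7.65% and 7.80% of epithelial-depleted cells in dissociations 10, 12 and 13 (11, 38 and 65 cells), against 6.67%, 12.7% and 14.8% of KikGR+ cells (21, 20 and 24 cells). The share was lower in the epithelial-depleted gate with a mean difference of -4.92 points (SD 2.19, exact permutation p = 0.25), or 0.569 of the KikGR+ mean. Dissociations 18 and 19 had 5.04% and 5.50% in the epithelial-depleted gate, below all 3 KikGR+ values.

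GLWamides and RPamides are neuropeptides of cnidarians, and the names of some clusters point to them. Cluster 25, GLWa/CCa, was 4.01%, 2.82% and 2.64% of epithelial-depleted cells, against 0.317%, 1.27% and 1.85% of KikGR+ cells in dissociations 10, 12 and 13. Its KikGR+ cells numbered 1, 2 and 3, and on the plates with both gates the mean difference was 0.475 points, against 2.01 over the 3 pairs. Cluster 20, 1 of the 2 that the authors name RPa, was 2.92%, 5.23% and 3.96% of epithelial-depleted cells, against 2.22%, 1.91% and 2.47% of KikGR+ cells. Cluster 43 of Neural 1, with no gene in its name, was 1.09%, 1.41% and 1.92% of epithelial-depleted cells, against 0%, 0.637% and 0.617% of KikGR+ cells, where the 0 of 315 cells allows up to 0.952%. These 3 clusters were the ones, 6.98% of the 43, for which the values of the 2 gates did not overlap in the pairs. Of all arrangements of 3 values against 3, a share of 0.1 separates fully, so this count does not show that the gates differ. In dissociations 18 and 19 the epithelial-depleted gate had 1.68% and 1.94% of cluster 25, the former below the highest KikGR+ value. Cluster 20 had 2.60% and 4.21% there and cluster 43 had 1.22% and 0.971%, above all KikGR+ values.

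A further 4 clusters were higher in the epithelial-depleted gate in every pair. Cluster 18 averaged 2.59% in the epithelial-depleted gate and 1.46% in the KikGR+ gate, and cluster 33 averaged 1.24% and 0.624%. On the plates with both gates, cluster 33 was lower in the epithelial-depleted gate (mean difference -0.936 points). Cluster 15 of Neural 2, named for the insulin-like peptide gene ilp7, was 8.39%, 4.83% and 7.32% of epithelial-depleted cells, against 8.25%, 4.46% and 2.47% of KikGR+ cells, so its mean difference of 1.79 points came from dissociation 13. The secretory-like cluster 12 held 4 epithelial-depleted cells and 1 KikGR+ cell in the pairs, too few to compare.

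Clusters 5 and 13 of Neural 1 had large mean differences without a common direction. Cluster 5 was 9.12%, 7.85% and 9.12% of epithelial-depleted cells, against 17.5%, 8.92% and 4.94% of KikGR+ cells in dissociations 10, 12 and 13. The epithelial-depleted gate was thus steady, also at 8.70% and 9.39% in dissociations 18 and 19, while the KikGR+ gate varied. Cluster 13 was higher in the epithelial-depleted gate in dissociations 10 and 12 by 3.30 and 1.48 points, and in 13 the difference was -0.720 points. The mucous cell cluster 9 is the whole of the mucous group given above.

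**Figure D3:**
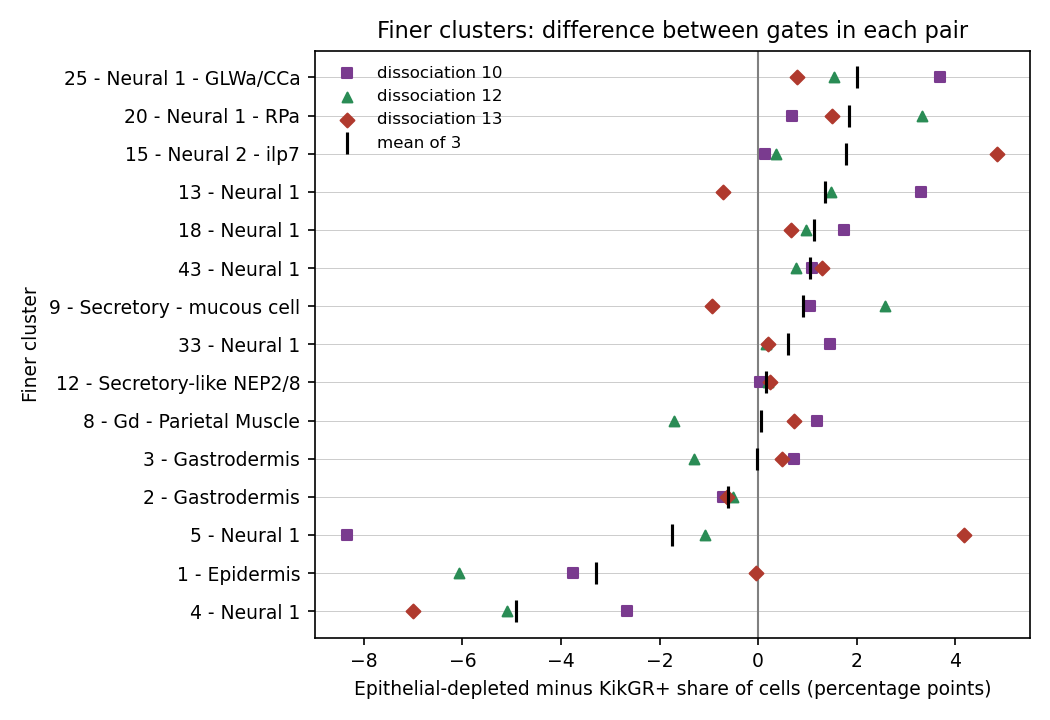
Difference in share of cells between the gates, epithelial-depleted minus KikGR+, in percentage points (x axis) for the finer clusters named in the text (y axis); symbols are the 3 paired dissociations and the black bar their mean. Cluster 4 of Neural 1 had the lowest mean, -4.92, and the symbols of cluster 5 spread from -8.34 to 4.19.

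As a share of Neural 1 cells alone, 6 of 13 finer clusters (46.2%) moved in the same direction in all 3 pairs. Clusters 18, 20, 25, 33 and 43 were higher and cluster 4 was lower in the epithelial-depleted gate. They are the same 6 as among all cells and not a second observation. Shares within Neural 1 sum to the whole, so a lower share of cluster 4 raises the rest. Cluster 4 was 9.02%, 16.8% and 16.3% of epithelial-depleted Neural 1 cells in dissociations 10, 12 and 13, against 15.4%, 28.6% and 31.6% of KikGR+ Neural 1 cells. Clusters 4 and 5 together, a sum chosen after its values were seen and given with no test, were 29.5%, 34.1% and 35.3% of epithelial-depleted Neural 1 cells (122, 226 and 399 cells), against 55.9%, 48.6% and 42.1% of KikGR+ Neural 1 cells (136, 70 and 76 cells). The mean difference was -15.9 points with an SD of 9.88, and the epithelial-depleted gate had 42.7% in dissociation 18, within the range of the KikGR+ values, and 32.9% in dissociation 19, below it.

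Single libraries bore on this sum. The 2 KikGR+ libraries of dissociation 10, from the same plate, had 42.7% and 72.1%, and no cell of the one with 42.7% has a colour class. The epithelial-depleted libraries of dissociations 10, 12 and 13 had 27.8 to 32%, 28.4 to 40.5% and 28.99 to 41.6%. Those of the unpaired dissociations 18 and 19 had 26.8 to 54.7% and 29.7 to 36.4%, so single libraries of both gates overlapped. On the shared plate of dissociation 12 the sum was 28.4% of epithelial-depleted and 48.6% of KikGR+ Neural 1 cells, but on that of dissociation 13 it was 41.6% and 42.1%. In the KikGR+ gate of the FoxL2 dissociations with DMSO it was 25 to 33.6%.

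**Figure D4:**
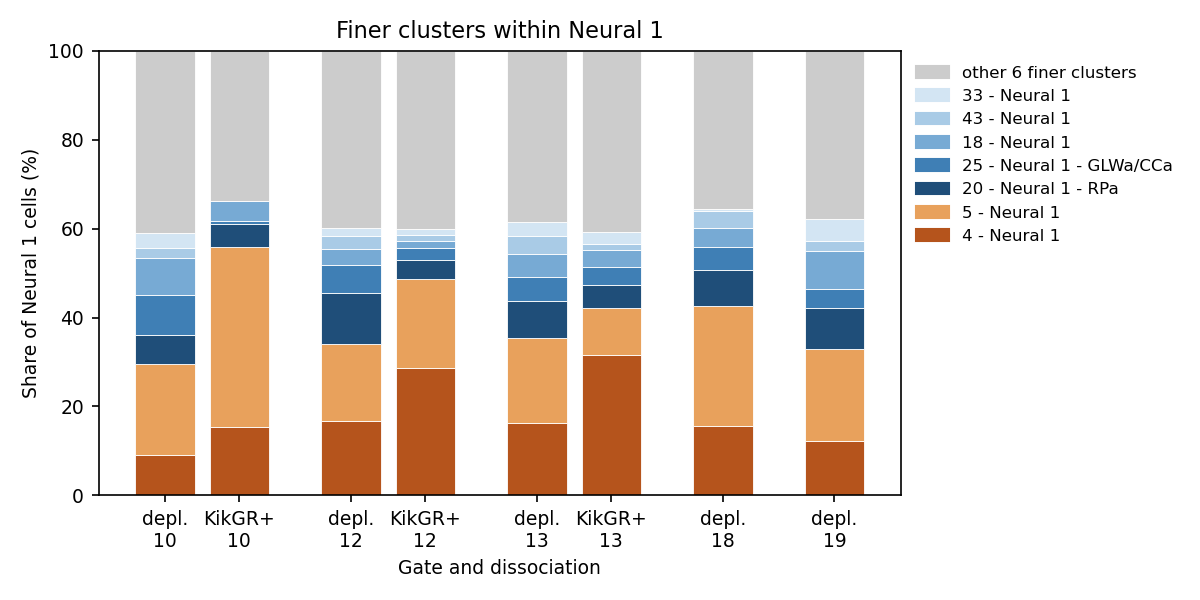
Stacked shares of Neural 1 cells in percent (y axis) in the finer clusters 4 and 5 (orange shades), the 5 clusters that were higher in the epithelial-depleted gate in all pairs (blue shades) and the other 6 (grey), by gate and dissociation (x axis; depl., epithelial-depleted). Clusters 4 and 5 took 29.5 to 35.3% of Neural 1 in the epithelial-depleted gate of dissociations 10, 12 and 13, against 42.1 to 55.9% in their KikGR+ gate.

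In the 3 pairs, cells of the epithelial-depleted gate were spread more evenly over the finer clusters. The effective number of clusters, an inverse Simpson index corrected for the number of cells, counts how many equally large clusters would give the same evenness. It was 23.9, 24.0 and 22.9 in the epithelial-depleted gate of dissociations 10, 12 and 13, against 16.7, 18.9 and 19.5 in the KikGR+ gate, and the 2 sets did not overlap. The mean was 23.6 ± 0.605 against 18.4 ± 1.48 (SD, n = 3 each), a paired difference of 5.27 (exact permutation p = 0.25), and permuting the gate over plates gave p = 0.0417, the smallest p of that test. Plates are parts of 1 dissociation, so this p covers the spread between plates and not between dissociations. Dissociations 18 and 19 had 19.1 and 23.3 in the epithelial-depleted gate, and the value of 18 lay within the range of the KikGR+ gate. Setting 5 against 3 values, which mixes gate with day, gave a difference of 4.29 (unpaired exact permutation p = 0.0536). With Neural 1 left out, the difference was 0.169 (exact permutation p = 0.75).

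The share of sorted wells that gave a cell the authors kept differed between the gates in opposite directions, lower in the epithelial-depleted gate in dissociation 10 and higher in it in dissociations 12 and 13. Of the wells with a sorted cell, 72.1% (274 of 380), 87.2% (497 of 570) and 87.7% (833 of 950) of epithelial-depleted wells were in the cell table in dissociations 10, 12 and 13, against 82.9% (315 of 380), 82.6% (157 of 190) and 85.3% (162 of 190) of KikGR+ wells. The epithelial-depleted wells of dissociation 10 were the low value, with a Wilson interval of 67.4 to 76.4%, against 78.8 to 86.3% for the KikGR+ wells of that dissociation. The mean difference was -1.27 points with an SD of 8.31 (exact permutation p = 1), and 3.49 points without dissociation 10. None of 40 control wells without a cell was in the table. Whether wells of one cell type were lost more often was not tested.

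Reporter colour could be read in the KikGR+ gate only, since 0 of 2568 epithelial-depleted cells have a colour class, against 460 of 634 KikGR+ cells. Of the KikGR+ cells with a class, 61.1%, 67.9% and 51.6% were red in dissociations 10, 12 and 13, and how the class was set is not given in the sources used here. Green cells numbered 5, 3 and 7. In dissociation 10, 5 of 16 epithelial cells (31.3%) and 86 of 133 other cells (64.7%) were red. In dissociation 12 these were 14 of 22 (63.6%) and 92 of 134 (68.7%), and dissociation 13 had too few epithelial cells for a share. Progenitor cells were mostly orange, with 8 of 12, 12 of 16 and 16 of 18, while Neural 1 was mostly red, at 70.5%, 73.9% and 66.7%.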

How the data were processed

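Single cells were sorted into plates and made into MARS-Seq libraries, 2 per plate, per the labels' protocols, and the submitters' processing notes name STARsolo and STAR 2.7.10b. For each cell that the authors kept, their deposited table gives categories (gate, broad and finer cluster, colour class), and the deposited well lists say which wells received a cell. Cell filters, clustering settings and doublet treatment are not given in the sources used here. Table entries differed from the labels in 0 cells. The dissociation was the replicate and paired the gates, because both gates of a dissociation carry its label. Shares were computed per dissociation and gate and compared by two-sided exact permutation of signs over 3 pairs (8 sign flips), with Benjamini-Hochberg adjustment over clusters, in Python 3.11.15 with scipy 1.17.1. All broad clusters are named. Finer clusters were named if among the 10 with the largest mean difference of those with 1 direction in all pairs, if epithelial, or if among the 3 largest without a common direction. Members and lists were chosen with earlier results of these data known. The functions were tested on simulated data. Precision is limited by the 3 pairs, and within a pair by 157 to 833 cells per gate.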

Additional observations from a re-analysis of the deposited data

Results flagged for a closer look

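In the epithelial-depleted gate, where 5 dissociations allow a check for values far from the others, dissociation 18 (day 2, no KikGR+ counterpart) stood apart in 4 quantities. Its Neural 1 share was 32.2%, below the 44.5 to 47.9% of the other 4. Its Progenitor share was 14.8% and its Neural 4 share 6.87%, both the highest of the 5, and its effective number of clusters, 19.1, was the lowest. Dissociation 13 had the lowest mucous cell share, 2.16%, where the other 4 lay at 3.22 to 3.56%. Chance gives such a flag in about 1 of 20 groups, and the broad clusters alone number 13. The 4 quantities of dissociation 18 are not independent, since shares sum to the whole and the effective number comes from the same cells. Dissociation 18 entered none of the paired values.

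The difference between gates ran one way in the single day 2 pair and the other way in both day 4 pairs for 5 of 13 broad clusters. Of the sign patterns that 3 pairs can have, a share of 0.25 splits in this way, so the count does not show that the days differ. With the day 4 mean first, the epithelial-depleted minus KikGR+ difference was 0.413 and -0.952 points for Muscle, -0.767 and 1.60 for Neural 0, 3.04 and -0.115 for Neural 2, 0.0936 and -2.17 for Neural 3, and -1.30 and 1.36 for Progenitor. These differences between days were not tested, and day 2 has 1 pair only.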

How the results depend on the processing

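The epithelial share, the neural share and the effective number of clusters kept their direction under every alternative run, but not their size. They were recomputed on a logit or log scale, with equal weight per library, without pairing and without each dissociation. Further alternatives left Neural 1 out of the total and, added after seeing the data, used the plates with both gates alone. With 5 against 3, which also mixes gate with day, the epithelial difference shrank to -0.432 points and the neural one to 0.0237. With Neural 1 left out, the difference in effective number was 0.169. The effective number, at a difference of 5.27, had p = 0.0417 when the gate was permuted over plates, which are parts of 1 dissociation. In the paired exact permutation test over dissociations its p was 0.25. Without the replicate block, 3 against 3, the epithelial difference was -3.87 points (exact permutation p = 0.4). The gates did not overlap in 0 of 13 broad and 3 of 43 finer clusters. With 5 against 3 these were 0 and 2. Clusters with 1 direction numbered 4 to 7 of 13 broad, 19 to 22 of 43 finer and 2 to 5 of 11 non-epithelial ones when 1 dissociation was left out, as fewer pairs must then have the same sign, and 7 broad ones on day 4 alone. With Neural 1 left out, its 13 finer clusters drop out of the 43 and Neural 1 itself out of the 11. Of those that remain, 4 finer ones and 1 non-epithelial one had 1 direction. On the logit scale it was 1 of the 11 non-epithelial ones. A count for day 2 cannot be made from 1 pair.

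Of the clusters with 1 direction in the pairs, 2 changed sign under an alternative: Neural 1, at -1.81 points with 5 against 3 and -1.72 on the plates with both gates, and cluster 33, at -0.936 on those plates. On the same plates Developing cnidocytes were 2.20, Muscle 0.274, Neural 0 -1.32, Neural 3 0.761, Neural 4 -1.42, Undetermined 1.22, cluster 5 1.83 and cluster 8 -0.955, each opposite in sign to its value over the 3 pairs. With 5 against 3, Gastrodermis was 0.525, its cluster 3 0.515 and Progenitor 0.473. On the logit scale Neural 0 was -0.0912, cluster 3 0.387 and cluster 8 -0.0459, and Neural 0 was -0.00240 with equal weight per library. On day 2 alone Gastrodermis was 1.20, Neural 2 -0.115 and Progenitor 1.36. Without dissociation 10, which is day 4 alone, Muscle was 0.413, Neural 0 -0.767, Neural 3 0.0936, Neural 4 -0.742, cluster 5 1.56 and cluster 8 -0.495. Without dissociation 12, Gastrodermis was 0.886 and cluster 3 0.605. Without dissociation 13, Progenitor was 0.314 and cluster 8 -0.260. Without 1 dissociation, these clusters ranged from -1.48 (Gastrodermis), -0.365 (Muscle), -1.04 (Neural 3), -1.30 (Progenitor), -4.70 (cluster 5) and -0.414 (cluster 3) up to the positive values given, and up to 0.587 (Neural 0), 1.38 (Neural 4) and 0.955 (cluster 8). The share of sorted wells kept ranged from -4.18 to 3.49 points without 1 dissociation. The cause of these changes was not tested.

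The red share of epithelial minus other KikGR+ cells was -19.2 points over 2 dissociations and -5.02 with at least 20 coloured cells, which left dissociation 12 only. With 157 and 162 KikGR+ cells in dissociations 12 and 13, clusters of a few cells cannot be compared.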
